A study of Saccharomyces cerevisiae with 10 samples.

Results

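The RNA that accumulates when cytoplasmic decay is lost was compared, feature by feature, with the RNA that accumulates when nuclear decay is lowered in budding yeast, Saccharomyces cerevisiae. The measure was a difference of effects, the log2 change of xrn1 against WT minus the log2 change of tet-MTR4-Dox against WT-Dox. All rows of yeast RNA entered by that rule, without the spike-in rows, which gave 10799 of the 10891 rows of the series in 8 of its 10 libraries. Of these, 9666 passed a filter on low values and were tested. A positive difference means a larger xrn1 effect and a negative one a larger tet-MTR4-Dox effect.

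Each of the 4 groups held 2 biological replicates, and strand-specific libraries were made from total RNA depleted of ribosomal RNA. The xrn1 strain is BY4741, a MATa strain with his3Δ1, leu2Δ0, met15Δ0 and ura3Δ0, in which kanMX4 replaces XRN1, and its WT is BY4741 without that deletion. In the tet-MTR4-Dox strain, of the BMA64-1A background, MTR4 stands behind a tetOFF promoter marked with kanMX6, so that doxycycline shuts the gene off. Its WT-Dox control is BMA64-1A, and both are MATa and carry can1-100, trp1Δ2, ura3-1, ade2-1 and his3-11,15 beside a leu2 mutation. Cells of all groups grew in YPD at 30 °C to an OD600 of 0.5, and only tet-MTR4-Dox and WT-Dox then spent 6 hours with doxycycline, at 10 µg/mL. The xrn1 effect is thus that of a lasting deletion in one background, and the tet-MTR4-Dox effect that of a timed depletion in another, in the presence of a drug. These differences and that of the 2 proteins cannot be told apart in the difference of effects.

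Xrn1 is the main cytoplasmic exoribonuclease of yeast and digests RNA from the 5′ end once the cap has been removed. Mtr4 is an RNA helicase that, alone or within the TRAMP complex, feeds nuclear RNA into the exosome, which trims or destroys it from the 3′ end. The nuclear exosome matures snoRNAs and ribosomal RNA and removes cryptic unstable transcripts (CUTs), whereas Xrn1-sensitive unstable transcripts (XUTs) are long noncoding RNAs that reach the cytoplasm before they are destroyed. Nrd1-unterminated transcripts (NUTs) are RNAs that lengthen or appear when the termination factor Nrd1 is removed. XUTs and CUTs carry these names because earlier work defined them by such sensitivities, so the direction of either class here is not independent evidence of it.

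Libraries held 16 to 33.5 M reads summed over all feature rows, of which 1.35% to 3.14% fell on ERCC spike-in RNAs. The deposited values are densities in arbitrary units, in which reads are set against the length of the feature and against the spike-ins of the library, so changes are per spike-in RNA. Yeast reads per ERCC read came to 72.4 and 72.8 in xrn1, against 35.3 and 33.5 in WT, and 46.9 and 47.5 in tet-MTR4-Dox, against 32.0 and 30.9 in WT-Dox. These are bulk cultures, in which fewer cells and less RNA per cell cannot be told apart. The XRN1 gene (YGL173C, chromosome VII, 175527 to 180113, minus strand) had densities of 0.102 and 0.106 in xrn1, against 2.49 and 2.28 in WT, and 1.89 and 1.87 in tet-MTR4-Dox, against 1.32 and 1.2 in WT-Dox. The MTR4 gene (YJL050W, chromosome X, 342522 to 345743, plus strand) had 2.35 and 2.37 in xrn1, against 1.61 and 1.51 in WT, and 0.429 and 0.469 in tet-MTR4-Dox, against 1.49 and 1.3 in WT-Dox. XRN1 RNA was thus nearly gone in the deletion strain, while the depleted strain kept a fold of 0.325 of the MTR4 RNA of its control (log2 -1.62, limma adjusted p = 4.9e-09). The TRP1 marker gene, at 0.129 and 0.128 in tet-MTR4-Dox but 0.00 and 0.00069 in WT-Dox, shows a further difference within that pair, whose part in the results was not tested.

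Most RNAs rose in both mutants, and what set the mutants apart was the amount. The xrn1 effect was higher for 9181 of 9666 features (95% called) and lower for 84 (0.869%), and the tet-MTR4-Dox effect was higher for 8825 (91.3%) and lower for 316 (3.27%), all at a limma adjusted p under 0.05. Both rose for 8404 features. The difference of effects was positive for 5462 features (56.5% called) and negative for 2826 (29.2%). These counts lean on the median gene, because the median protein-coding gene rose by 1.90 on the log2 scale in xrn1 and by 0.84 in tet-MTR4-Dox, and every deposited difference carries the median difference of 1.03. On a second scale, called rescaled below, the median protein-coding gene was set to be equal in all libraries, and there 2140 differences were positive (22.1% called) and 5550 negative (57.4%). Called on both scales were 2139 positive and 2826 negative differences, and only such features are named below with a direction unless another is stated. Rescaling lowers most differences by a near-common amount. A call on both scales is thus close to a call on the stricter scale for that sign, and is not independent support for a direction.

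The classes of RNA separated along this axis. Protein-coding genes had a median xrn1 effect of 1.90 and a median tet-MTR4-Dox effect of 0.84 over 5613 tested of 5897. XUTs had medians of 2.47 in xrn1 and 2.81 in tet-MTR4-Dox over 1452 tested of 1664, so the typical XUT rose strongly in both. NUTs had 1.77 and 3.57 in the same order over 1232 of 1526. CUTs had 1.27 and 4.31 over 894 of 925, and snoRNAs had -0.11 and 2.15 over all 76. The median difference of effects was therefore 1.03 for protein-coding genes, -0.22 for XUTs, -1.77 for NUTs, -3.0 for CUTs and -2.5 for snoRNAs, beside 0.57 over all tested features. In the plot of the effects against each other, the classes lie on different sides of the line of equal effects.

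**Figure D1:**
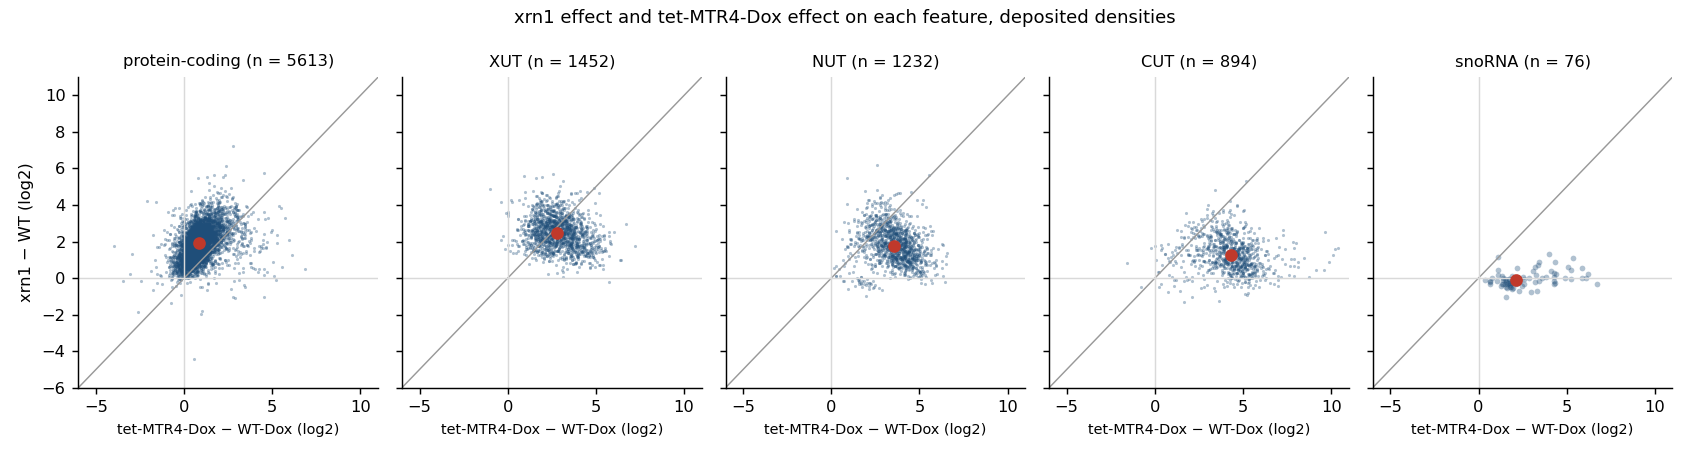
The xrn1 effect (vertical axis, log2) against the tet-MTR4-Dox effect (horizontal axis, log2) of each tested feature on the deposited densities, in 1 panel per class. The diagonal marks equal effects and the red point the class medians. Protein-coding genes lie mostly above the diagonal (medians 1.90 and 0.84), XUTs around it, and NUTs, CUTs and snoRNAs below it.

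Calls of the difference were also counted by class. A negative difference was called for 784 of 894 CUTs, 929 of 1232 NUTs, 75 of 76 snoRNAs and 596 of 1452 XUTs, against 278 of 5613 protein-coding genes (4.95% called). A positive difference was called for 4753 protein-coding genes (84.7% called), 408 XUTs, 138 NUTs and 27 CUTs, and for no snoRNA. On the rescaled scale the negative calls numbered 855 CUTs, 1124 NUTs, 76 snoRNAs and 954 XUTs, against 2293 protein-coding genes (40.9% called). Positive calls on that scale numbered 1938 protein-coding genes (34.5% called), 126 XUTs, 31 NUTs and 3 CUTs. The filter on low values used the mean over all 10 libraries. A row low in the other groups could thus enter through the group where it rises. The counts within the noncoding classes carry this selection, and its size was not tested.

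The gaps between class medians were wider than the spread between replicates. Taken over the 16 combinations of 1 library per group, the CUT median minus the protein-coding median ran from -4.28 to -3.78, that of snoRNAs from -3.95 to -2.92, that of NUTs from -2.94 to -2.64 and that of XUTs from -1.42 to -1.15. Because XUTs, CUTs and NUTs are low in control cells, the classes were also set side by side in the lowest of 5 bins of control density, each with an equal share of the protein-coding genes. There the median difference was 0.96 for 1123 protein-coding genes, -0.25 for 1423 XUTs, -1.77 for 1160 NUTs and -3.07 for 848 CUTs. The feature rows overlap in part, and no positions of noncoding rows were used here, so reads of a gene and of a noncoding row on the same strand cannot be told apart.

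The relation between the effects also differed in sign between classes, as a description over features that share libraries. Over 5613 protein-coding genes, Pearson's r between the xrn1 effect and the tet-MTR4-Dox effect was 0.39 and Spearman's rho 0.45. Over 1452 XUTs these were -0.25 and -0.24, over 894 CUTs -0.15 and -0.25, and over 1232 NUTs -0.20 and -0.28. Over all levels, genes that gained more RNA in xrn1 thus tended to gain more in tet-MTR4-Dox, while noncoding transcripts of these classes showed a weak opposite tendency. Within the 5 bins of control density, r over protein-coding genes was lower, at 0.02, 0.20, 0.25, 0.20 and 0.24 from the lowest bin up. Most XUTs, CUTs and NUTs lie in the lowest bin, and the part of control density in this contrast was not tested.

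CUTs gave the largest single differences. CUT433 had densities of 0.114 and 0.153 in xrn1, against 0.0984 and 0.0937 in WT, and 74.9 and 64.3 in tet-MTR4-Dox, against 0.0631 and 0.114 in WT-Dox. Its level was close to WT in xrn1 and 759-fold above WT-Dox after Mtr4 depletion, a difference of -9.13 ± 0.31 (SE), limma adjusted p = 5.1e-09. CUT342 had 0.0349 and 0.0289 in xrn1, against 0.0101 and 0.0192 in WT, and 17.1 and 17.3 in tet-MTR4-Dox, against 0.0111 and 0.0132 in WT-Dox, a difference of -8.97 ± 0.32 (SE), limma adjusted p = 7.3e-09. CUT676 had 0.0569 and 0.0471 in xrn1, against 0.0246 and 0.0125 in WT, and 26.7 and 21.8 in tet-MTR4-Dox, against 0.018 and 0.0143 in WT-Dox, a difference of -8.81 ± 0.30 (SE), limma adjusted p = 5.4e-09. In all 3 the tet-MTR4-Dox libraries stood far above the other 6. The 3 CUTs with a larger xrn1 effect on both scales were CUT289, CUT465 and CUT648, named after their values were seen. CUT648 had 0.63 and 0.513 in xrn1, against 0.363 and 0.277 in WT, and 0.114 and 0.0683 in tet-MTR4-Dox, against 0.306 and 0.253 in WT-Dox, so it was higher in xrn1 and lower in tet-MTR4-Dox (difference 2.42 ± 0.30 (SE), limma adjusted p = 2.3e-05). CUT465 rose in both, with an xrn1 effect of 3.55 and a tet-MTR4-Dox effect of 1.75. CUT289 had a difference of 1.85, but its rescaled difference of 0.79 lost its call under 8 alternative settings.

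XUTs split in both directions. XUT0083 had 4.88 and 4.68 in xrn1, against 0.378 and 0.389 in WT, and 0.274 and 0.331 in tet-MTR4-Dox, against 0.304 and 0.291 in WT-Dox. It rose in xrn1, while its tet-MTR4-Dox effect of 0.02 did not pass the test, and its difference was 3.6 ± 0.12 (SE), limma adjusted p = 5.5e-09. XUT0961 had 5.28 and 5.12 in xrn1, against 0.221 and 0.226 in WT, and 0.932 and 0.966 in tet-MTR4-Dox, against 0.289 and 0.302 in WT-Dox, so it rose in both but more in xrn1 (difference 2.84 ± 0.08 (SE), limma adjusted p = 2.1e-09). For XUT0109 the densities were 7.15 and 7.56 in xrn1, against 2.0 and 2.12 in WT, and 4.76 and 4.46 in tet-MTR4-Dox, against 4.85 and 4.26 in WT-Dox, a difference of 1.82 ± 0.13 (SE), limma adjusted p = 3.3e-07. On the other side, XUT1083 had 0.104 and 0.0803 in xrn1, against 0.0404 and 0.0474 in WT, and 3.9 and 3.81 in tet-MTR4-Dox, against 0.041 and 0.0352 in WT-Dox. This XUT rose mostly after Mtr4 depletion, and its difference was -5.48 ± 0.19 (SE), limma adjusted p = 6.0e-09. XUT0649 had 0.819 and 0.72 in xrn1, against 0.102 and 0.083 in WT, and 16.1 and 14.2 in tet-MTR4-Dox, against 0.131 and 0.149 in WT-Dox, a difference of -3.72 ± 0.16 (SE), limma adjusted p = 1.9e-08. XUT0927 had 0.539 and 0.596 in xrn1, against 0.345 and 0.288 in WT, and 4.31 and 3.86 in tet-MTR4-Dox, against 0.278 and 0.26 in WT-Dox, a difference of -3.06 ± 0.14 (SE), limma adjusted p = 2.2e-08. The 3 XUTs named on this side thus carry an Xrn1-based name while their larger change was in tet-MTR4-Dox.

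NUTs leaned to the Mtr4 side. NUT1395 had 0.15 and 0.136 in xrn1, against 0.18 and 0.156 in WT, and 13 and 11.2 in tet-MTR4-Dox, against 0.126 and 0.137 in WT-Dox, a difference of -6.67 ± 0.17 (SE), limma adjusted p = 1.5e-09. NUT0013 had 0.129 and 0.118 in xrn1, against 0.119 and 0.112 in WT, and 11.3 and 9.44 in tet-MTR4-Dox, against 0.109 and 0.131 in WT-Dox, a difference of -6.26 ± 0.15 (SE), limma adjusted p = 1.2e-09. NUT0903 had 0.328 and 0.273 in xrn1, against 0.25 and 0.253 in WT, and 19 and 16.3 in tet-MTR4-Dox, against 0.234 and 0.30 in WT-Dox, a difference of -5.78 ± 0.18 (SE), limma adjusted p = 3.3e-09. In each, the xrn1 libraries lay close to the WT libraries. On the other side NUT1459 had the largest positive difference among named NUTs, 4.55, but its recovered reads, 3268 and 2557 in xrn1, were nearly those of ATG41, 3261 and 2553, so the 2 rows may hold the same RNA. NUT1403 had a difference of 1.53 ± 0.11 (SE), limma adjusted p = 3.4e-07, and its reads likewise nearly match those of a gene, IZH2, so it may hold the RNA of that gene.

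Small nucleolar RNAs guide the chemical modification of ribosomal RNA, and those of the box C/D family carry a short box C near the 5′ end and a box D near the 3′ end. The sequences of the 4 snoRNAs with the largest differences of at least median density, and of the 2 box C/D snoRNAs with the smallest called differences, are shown so that the results can be read beside the boxes. They are DNA letters of the RefSeq R64 genome, 5′ to 3′, with the letters TGATG of box C and CTGA of box D in capitals.
snR58: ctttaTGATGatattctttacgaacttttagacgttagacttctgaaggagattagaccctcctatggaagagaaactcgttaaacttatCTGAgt
snR56: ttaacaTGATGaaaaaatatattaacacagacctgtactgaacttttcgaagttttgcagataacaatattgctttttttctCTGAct
snR48: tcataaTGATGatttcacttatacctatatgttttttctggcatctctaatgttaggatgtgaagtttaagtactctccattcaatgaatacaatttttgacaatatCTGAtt
snR71: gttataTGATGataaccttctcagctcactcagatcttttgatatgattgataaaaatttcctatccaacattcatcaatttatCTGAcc
snR75: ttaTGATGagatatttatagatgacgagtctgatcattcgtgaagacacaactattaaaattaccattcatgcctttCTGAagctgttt
snR24: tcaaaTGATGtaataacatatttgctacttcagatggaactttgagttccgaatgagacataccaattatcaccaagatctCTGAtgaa
They lie at chrXV:136088-136183 (minus strand), chrII:88190-88277 (plus), chrVII:609584-609696 (plus), chrVIII:411228-411317 (plus), chrXIII:297918-298006 (plus) and chrXIII:499984-500072 (minus), in the order printed.

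All 6 hold box C near the 5′ end and box D near the 3′ end, yet their effects differed widely. Box D lies farther from the printed 3′ end in snR75 and snR24 than in the rest. snR58 had densities of 0.346 and 0.318 in xrn1, against 0.454 and 0.397 in WT, and 33.5 and 27.2 in tet-MTR4-Dox, against 0.233 and 0.336 in WT-Dox. Its xrn1 effect of -0.35 did not pass the test, and the difference was -7.07 ± 0.25 (SE), limma adjusted p = 6.7e-09. snR56 had 1.1 and 1.06 in xrn1, against 1.14 and 0.995 in WT, and 84.8 and 71.1 in tet-MTR4-Dox, against 0.973 and 1.34 in WT-Dox, a difference of -6.06 ± 0.19 (SE), limma adjusted p = 3.6e-09. snR48 had 0.948 and 0.906 in xrn1, against 0.746 and 0.812 in WT, and 62.5 and 40.9 in tet-MTR4-Dox, against 0.631 and 0.70 in WT-Dox, a difference of -5.99 ± 0.22 (SE), limma adjusted p = 7.3e-09. snR71 had 1.49 and 1.39 in xrn1, against 1.36 and 1.54 in WT, and 71.1 and 55.5 in tet-MTR4-Dox, against 1.19 and 0.968 in WT-Dox, a difference of -5.87 ± 0.18 (SE), limma adjusted p = 3.2e-09. The densities of these 4 snoRNA rows thus rose between 58.2- and 105-fold in tet-MTR4-Dox. A density does not tell mature snoRNA from longer precursor RNA over the same bases, so which form rose was not tested. By contrast snR75 had 3.3 and 2.76 in xrn1, against 2.13 and 2.28 in WT, and 5.97 and 5.73 in tet-MTR4-Dox, against 2.79 and 2.74 in WT-Dox, a difference of -0.63 ± 0.11 (SE), limma adjusted p = 2.7e-04. snR24, encoded in the intron of ASC1, had 2.89 and 2.31 in xrn1, against 2.54 and 2.6 in WT, and 6.65 and 5.67 in tet-MTR4-Dox, against 3.27 and 4.02 in WT-Dox, a difference of -0.75 ± 0.17 (SE), limma adjusted p = 0.0018.

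Across the 76 snoRNAs, all rose in tet-MTR4-Dox on the deposited scale, while 14 rose and 20 fell in xrn1. Over all tested features 91.3% rose in tet-MTR4-Dox, and 95% rose and 0.869% fell in xrn1. Relative to the median protein-coding gene, on the rescaled scale, all 76 were lower in xrn1 (median effect -2.06), and 70 were higher and 2 lower in tet-MTR4-Dox (median effect 1.31). On that scale 33.7% of all tested features were lower in xrn1, and 62.7% were higher and 24.4% lower in tet-MTR4-Dox. A box C and box D pair, sought as TGATG in the first 30 bases and CTGA in the last 20, was found in 39 snoRNAs and in none of their opposite strands. The 39 had a median length of 98 bases, a median tet-MTR4-Dox effect of 3.57 and a median difference of -3.58. The other 37, most of them longer with a median of 197 bases, had a median tet-MTR4-Dox effect of 1.74 and a median difference of -2.07. The match is of letters alone, and snR42, known as a box H/ACA RNA, also holds them. It can equally miss box C/D RNAs whose letters or positions differ, so the 39 and the 37 are not the snoRNA families themselves. Length ran against the tet-MTR4-Dox effect over the 76 snoRNAs, with a Pearson's r of -0.50 and a Spearman's rho of -0.66. Boxes and length go together here, and their parts were not tested.

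The exception in direction was snR42 (chromosome XI, 559016 to 559366, minus strand), with densities of 90.6 and 84.5 in xrn1, against 36.9 and 40.7 in WT, and 83.8 and 80.8 in tet-MTR4-Dox, against 36.1 and 39.7 in WT-Dox. It rose by a like amount in both mutants, a difference of 0.05 ± 0.11 (SE), limma adjusted p = 0.67 on the deposited scale and of -1.04 (limma adjusted p = 1.2e-04) on the rescaled one. snR44, which sits in an intron of RPS22B, had the smallest called difference, -0.49, and lost that call without a library in 5 of 8 cases. By origin, the 17 snoRNAs that lie in clusters had a median difference of -2.87, the 8 intron-encoded ones -2.75 and the 51 single ones -2.3. This order did not hold among snoRNAs with the box C and box D pair. There the 20 single ones had -4.33, the 6 intron-encoded ones -3.01 and the 13 in clusters -2.87. The 31 single ones without the pair had -2.07. The RNA of RNase MRP, the enzyme that cuts precursor ribosomal RNA, is a stable nucleolar RNA too, and it had an xrn1 effect of -0.27 and a tet-MTR4-Dox effect of 1.73. In the plot of the snoRNA effects on the deposited scale, the xrn1 values stay near 0 while the tet-MTR4-Dox values spread upward.

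**Figure D2:**
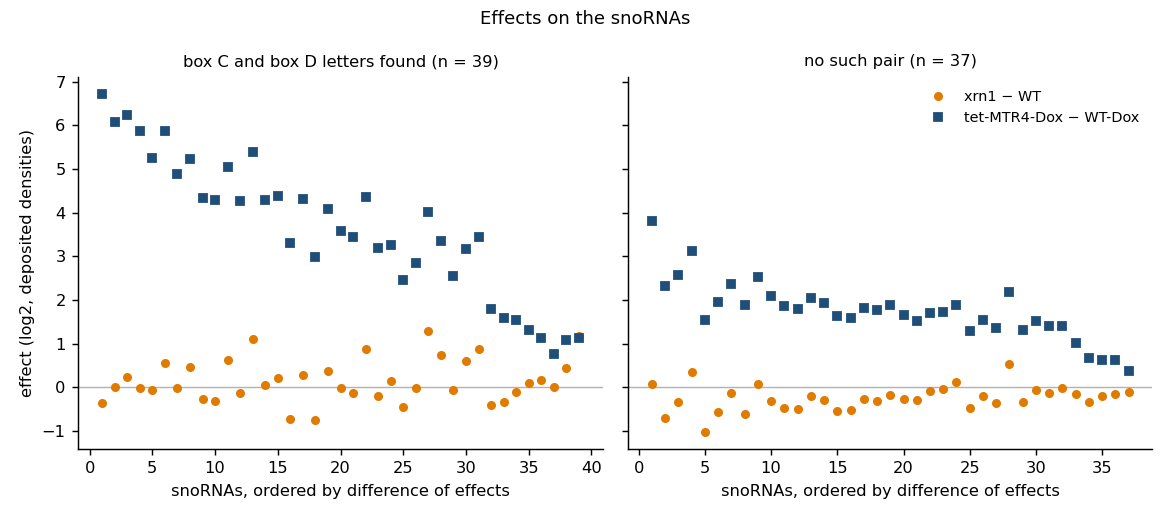
The xrn1 effect (circles) and the tet-MTR4-Dox effect (squares) on each of the 76 snoRNAs (log2, deposited densities, vertical axis), ordered by the difference of effects, for the 39 with box C and box D letters (left) and the 37 without (right). Squares reach 6.72 on the left, with a median of 3.57, and have a median of 1.74 on the right, while circles lie around 0 in both panels.

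Among mRNAs of at least the median density of protein-coding genes, those with the largest differences were named on each side, and of those on the xrn1 side 3 encode enzymes of arginine synthesis. ARG1, which encodes argininosuccinate synthase (YOL058W, chromosome XV, 219211 to 220473, plus strand), had densities of 3.55 and 3.73 in xrn1, against 0.20 and 0.183 in WT, and 0.566 and 0.63 in tet-MTR4-Dox, against 2.58 and 2.56 in WT-Dox. It was higher in xrn1 and lower in tet-MTR4-Dox than in their controls, which themselves differed, and the difference was 6.3 ± 0.10 (SE), limma adjusted p = 2.8e-10. ARG56 (YER069W, chromosome V, 295410 to 298001, plus strand), whose protein is cut into a pair of arginine enzymes, had 3.39 and 3.31 in xrn1, against 0.273 and 0.268 in WT, and 0.681 and 0.728 in tet-MTR4-Dox, against 1.41 and 1.25 in WT-Dox (difference 4.51 ± 0.10 (SE), limma adjusted p = 6.6e-10). ARG4, argininosuccinate lyase (YHR018C, chromosome VIII, 140011 to 141402, minus strand), had 10.6 and 10.5 in xrn1, against 0.712 and 0.735 in WT, and 1.05 and 1.18 in tet-MTR4-Dox, against 1.66 and 1.55 in WT-Dox (difference 4.38 ± 0.10 (SE), limma adjusted p = 1.0e-09). All 3 genes of arginine synthesis shared this pattern, up in xrn1 with both libraries above both controls, and down in tet-MTR4-Dox with both libraries below both controls.

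The other 4 named mRNAs on this side lie outside arginine synthesis. PHO5, the secreted acid phosphatase that is switched on when phosphate is short (YBR093C, chromosome II, 429548 to 430951, minus strand), had 2.75 and 2.82 in xrn1, against 0.865 and 0.79 in WT, and 0.135 and 0.18 in tet-MTR4-Dox, against 2.58 and 2.44 in WT-Dox. It rose 3.35-fold in xrn1 and stood at 0.0646 of its control in tet-MTR4-Dox, a difference of 5.7 ± 0.16 (SE), limma adjusted p = 2.7e-09. GAP1, the general amino acid permease (YKR039W, chromosome XI, 515063 to 516871, plus strand), had 1.58 and 1.54 in xrn1, against 0.139 and 0.136 in WT, and 1.3 and 1.48 in tet-MTR4-Dox, against 2.18 and 2.22 in WT-Dox (difference 4.11 ± 0.09 (SE), limma adjusted p = 1.0e-09). ATG41, a factor of selective autophagy (YPL250C, chromosome XVI, 74309 to 74719, minus strand), had 5.59 and 5.43 in xrn1, against 0.12 and 0.113 in WT, and 0.48 and 0.51 in tet-MTR4-Dox, against 0.282 and 0.294 in WT-Dox. Unlike the arginine genes it rose in both, 44.9-fold in xrn1 and 1.7-fold in tet-MTR4-Dox (difference 4.72 ± 0.09 (SE), limma adjusted p = 4.4e-10). ARO5 (YGL117W, chromosome VII, 288512 to 289309, plus strand) had 3.86 and 3.89 in xrn1, against 0.135 and 0.134 in WT, and 0.522 and 0.508 in tet-MTR4-Dox, against 0.409 and 0.388 in WT-Dox (difference 4.42 ± 0.11 (SE), limma adjusted p = 1.5e-09). In the plot of densities by library, WT-Dox lies above WT for all of these genes, so the starting levels of the backgrounds differ by as much as ARG1's 2.58 and 2.56 in WT-Dox and 0.20 and 0.183 in WT.

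**Figure D3:**
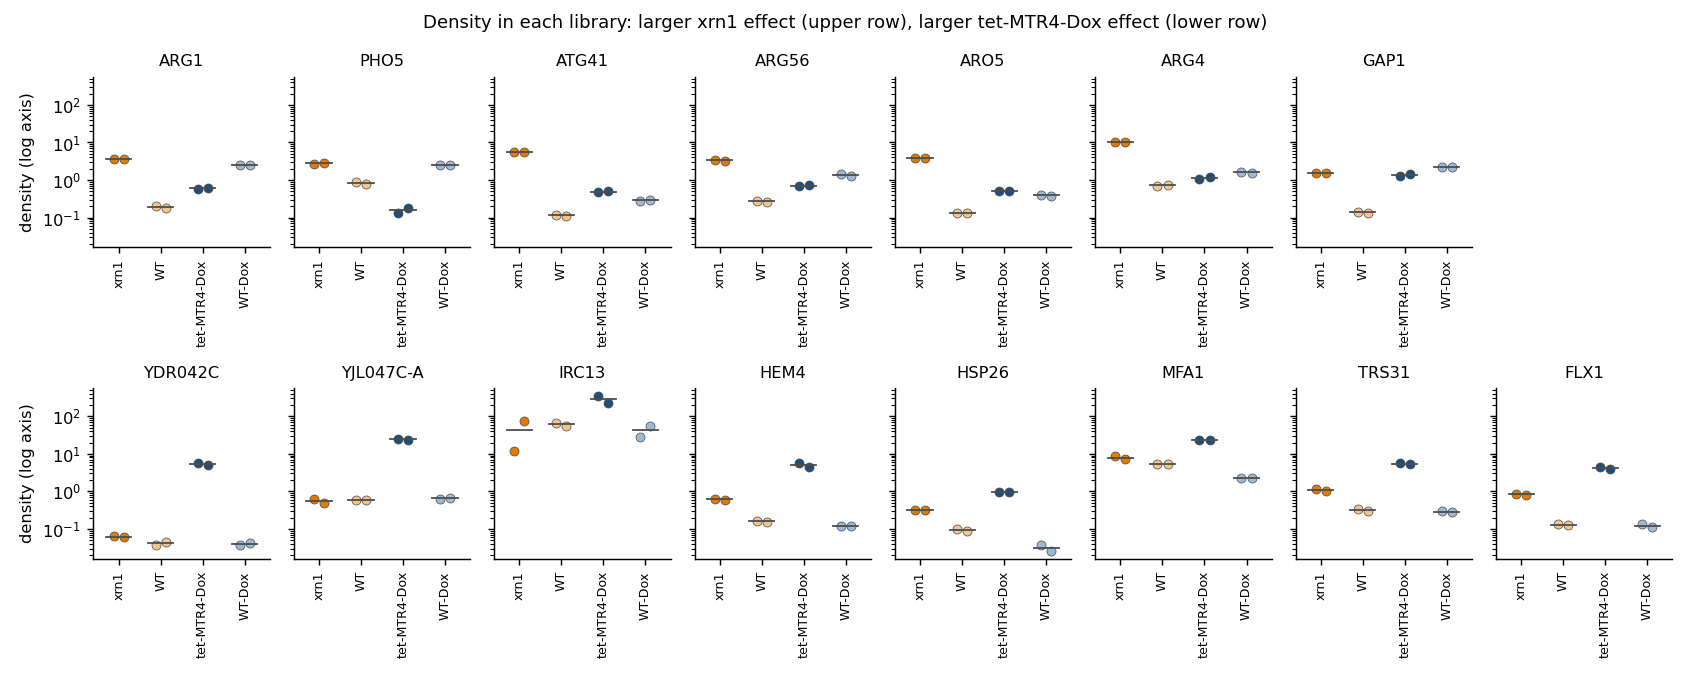
Density (log axis, arbitrary units) of the named mRNAs in each of the 2 libraries of xrn1, WT, tet-MTR4-Dox and WT-Dox, with a bar at the group mean. The upper row holds genes named for a large positive rescaled difference and the lower row the 8 with the largest negative one, both among genes of at least median density. In the upper row xrn1 is above WT in every panel, and in the lower row tet-MTR4-Dox is the highest group in every panel.

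Gcn4, the transcription activator of amino acid synthesis, binds the core letters TGACTC, and the first 130 of the 250 bases before the start codon are shown for the 2 named genes that hold it, with the letters in capitals.
ARG56: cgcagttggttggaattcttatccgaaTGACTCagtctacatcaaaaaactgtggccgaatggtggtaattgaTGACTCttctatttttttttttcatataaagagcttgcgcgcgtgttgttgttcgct
ARG4: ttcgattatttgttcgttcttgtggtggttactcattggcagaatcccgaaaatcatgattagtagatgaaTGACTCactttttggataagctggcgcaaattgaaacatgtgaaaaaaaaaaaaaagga
These are chrV:295160-295289 (plus strand) and chrVIII:141523-141652 (minus strand) of RefSeq R64. TGACTC, sought on both strands (as TGACTC or GAGTCA) in the 250 bases before the start codon, was found for ARG56 and ARG4 alone among the genes named on the xrn1 side, for 1 of the 8 on the Mtr4 side, FLX1, and for 28 of 47 genes of a list under Gcn4 control (59.6%), against 375 of all 6020 protein-coding genes (6.23%). Of the genes with a positive difference on both scales 162 of 1937 held it (8.36%), against 10 of 278 with a negative one (3.6%). The match is a description of these windows.

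Of that list under Gcn4 control, 47 of 47 measured members had a positive difference on the deposited scale (84.7% of all protein-coding genes), and 36 had a positive and 6 a negative one on the rescaled scale (34.5% and 40.9%). These shares of all protein-coding genes, with 4.95% negative as deposited, are the background of every list below. The median xrn1 effect was 1.67, the median tet-MTR4-Dox effect 0.01 and the median difference 1.47, beside 1.90, 0.84 and 1.03 over all protein-coding genes. After rescaling the median effects were -0.26 and -0.83. The typical member thus rose less than the median gene in xrn1 too, and its positive difference reflects its low tet-MTR4-Dox effect. ARG3, ornithine carbamoyltransferase, had 0.653 and 0.621 in xrn1, against 0.0303 and 0.028 in WT, and 0.259 and 0.295 in tet-MTR4-Dox, against 0.918 and 0.77 in WT-Dox, and its difference was 5.76 ± 0.15 (SE), limma adjusted p = 1.5e-09. Of the 47, 19 rose in xrn1 and fell in tet-MTR4-Dox on the deposited scale, against 278 of all 5613 protein-coding genes. In purine synthesis, another supply pathway, 2 of 19 genes were positive and 11 negative on the rescaled scale (34.5% and 40.9% of all protein-coding genes), and 11 positive and 2 negative as deposited. Its IMD2, an IMP dehydrogenase whose transcription start is chosen by guanine nucleotide supply, had an xrn1 effect of -0.26 and a tet-MTR4-Dox effect of 1.33 (difference -1.59 ± 0.08 (SE), limma adjusted p = 4.2e-08). ADE17, which acts in the last steps to IMP, had 1.53 and 2.55.

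Of all protein-coding genes 84.7% were positive and 4.95% negative as deposited, and 34.5% and 40.9% after rescaling, and lists of other nutrient genes lay above or near these positive shares. All 21 tested genes of the phosphate regulon had a positive difference as deposited, and 14 were positive and 3 negative after rescaling (median difference 1.53). Their median effects were 1.30 in xrn1 and -0.46 in tet-MTR4-Dox, beside 1.90 and 0.84 over all protein-coding genes. After rescaling these medians were -0.60 and -1.30, so the typical member lay below the median gene in both mutants. PHO11, an acid phosphatase with a near-identical copy in PHO12 that may share its reads, had an xrn1 effect of 1.3 and a tet-MTR4-Dox effect of -2.95, and GIT1, a glycerophosphoinositol permease, had 3.74 and 0.10. Of 28 sulfur and methionine genes tested, 27 were positive as deposited and 0 negative, and 17 positive and 5 negative after rescaling. Among them MUP1, the methionine permease, had effects of 2.51 and -1.0, and MET13, a methylenetetrahydrofolate reductase, 3.93 and 0.45. In the iron regulon 22 of 25 were positive and 0 negative as deposited, and 13 positive and 6 negative after rescaling, the first of these counts being near the share of all genes. FRE1, a ferric reductase, had 1.83 in xrn1 and -1.16 in tet-MTR4-Dox, MRS4, a mitochondrial iron carrier, 3.94 and 1.0, and FIT3, a cell wall mannoprotein, 3.22 and 0.70. Of 12 tested hexose transporter genes of 21, 12 were positive as deposited, and 5 positive and 2 negative after rescaling, which is near the positive shares of all genes. HXT1, the low-affinity carrier, had 1.72 and -1.41 (difference 3.13 ± 0.10 (SE), limma adjusted p = 5.0e-09).

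Of the 8 mRNAs with the largest Mtr4-sided difference among those of at least median density, 4 begin shortly after a snoRNA gene on the same strand and 2 overlap one. Some genes below that density, such as HUG1 (-3.26) and TIR1 (-2.92), had larger negative differences than the smallest of these 8. YDR042C (chromosome IV, 540601 to 541203, minus strand), a gene of unknown function that begins 399 bases after SNR47, had 0.0639 and 0.0595 in xrn1, against 0.0384 and 0.0457 in WT, and 5.76 and 5.14 in tet-MTR4-Dox, against 0.0372 and 0.0428 in WT-Dox. It stood 1.41-fold above WT in xrn1 and 118-fold above WT-Dox in tet-MTR4-Dox, a difference of -6.39 ± 0.20 (SE), limma adjusted p = 4.0e-09. HEM4, uroporphyrinogen III synthase of haem synthesis (YOR278W, chromosome XV, 842817 to 843644, plus strand), begins 211 bases after SNR5 and had 0.644 and 0.607 in xrn1, against 0.167 and 0.152 in WT, and 5.53 and 4.44 in tet-MTR4-Dox, against 0.123 and 0.121 in WT-Dox (difference -3.34 ± 0.15 (SE), limma adjusted p = 2.2e-08). TRS31, a subunit of the TRAPP complexes of vesicle traffic (YDR472W, chromosome IV, 1403322 to 1404173, plus strand), begins 280 bases after SNR13 and had 1.13 and 1.05 in xrn1, against 0.332 and 0.295 in WT, and 5.72 and 5.25 in tet-MTR4-Dox, against 0.294 and 0.281 in WT-Dox (difference -2.45 ± 0.11 (SE), limma adjusted p = 1.9e-08). FLX1, a mitochondrial FAD carrier (YIL134W, chromosome IX, 97395 to 98330, plus strand), begins 149 bases after SNR68 and had 0.84 and 0.819 in xrn1, against 0.136 and 0.125 in WT, and 4.38 and 3.94 in tet-MTR4-Dox, against 0.132 and 0.116 in WT-Dox (difference -2.39 ± 0.12 (SE), limma adjusted p = 5.1e-08). The last 3 rose in both mutants, and more in tet-MTR4-Dox. Their rows have inferred lengths of 1025 bases for HEM4 and 1073 each for TRS31 and FLX1, longer than the printed coordinates. Where the added bases lie is not given, and reads shared with the snoRNA were not tested.

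The 2 genes that overlap a snoRNA are YJL047C-A and IRC13, whose rows can hold reads of the snoRNA. YJL047C-A (chromosome X, 349044 to 349178, minus strand), over SNR60, had 0.639 and 0.481 in xrn1, against 0.575 and 0.604 in WT, and 25 and 23.4 in tet-MTR4-Dox, against 0.645 and 0.669 in WT-Dox (difference -5.28 ± 0.17 (SE), limma adjusted p = 4.5e-09). IRC13 (YOR235W, chromosome XV, 779870 to 780184, plus strand), over the U3 gene SNR17A, had 11.8 and 74.3 in xrn1, against 64.8 and 56.3 in WT, and 341 and 222 in tet-MTR4-Dox, against 28.5 and 55.8 in WT-Dox (difference -3.81 ± 0.98 (SE), limma adjusted p = 0.004), and its xrn1 libraries stood far apart, so that the difference was -2.48 without xrn1 replicate 1 and -5.13 without xrn1 replicate 2. The last 2 named genes have no snoRNA there. HSP26, a small heat shock protein (YBR072W, chromosome II, 382030 to 382674, plus strand), had 0.317 and 0.319 in xrn1, against 0.0992 and 0.0904 in WT, and 0.944 and 0.948 in tet-MTR4-Dox, against 0.0368 and 0.0263 in WT-Dox. It rose 3.21-fold in xrn1 and 25.4-fold in tet-MTR4-Dox, a difference of -2.99 ± 0.17 (SE), limma adjusted p = 9.1e-08. MFA1, the a-factor pheromone of MATa cells (YDR461W, chromosome IV, 1385176 to 1385286, plus strand), had 8.52 and 7.4 in xrn1, against 5.36 and 5.35 in WT, and 23.8 and 23.5 in tet-MTR4-Dox, against 2.34 and 2.33 in WT-Dox (difference -2.77 ± 0.10 (SE), limma adjusted p = 6.7e-09).

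Position after a snoRNA was then described for all genes, a grouping chosen after these values were seen and so given without a test. On the same strand, 31 tested protein-coding genes begin within 1000 bases after a snoRNA. Distances follow RefSeq coordinates, and many of the counted rows are longer than these. Their median xrn1 effect was 1.75 and their median tet-MTR4-Dox effect 1.16, beside 1.90 and 0.84 for all protein-coding genes, and their median difference was 0.35. As deposited, 9 of the 31 had a negative difference and 17 a positive one, against 4.95% and 84.7% of all protein-coding genes. After rescaling, 25 were negative and 3 positive, against 40.9% and 34.5%. Next after the named genes came CTO1 (194 bases after SNR33) with a difference of -2.1 and SEN2, a subunit of the tRNA splicing endonuclease (247 bases after SNR79), with -1.76. At the other end, ASN1, an asparagine synthetase of the list under Gcn4 control (717 bases after SNR45), had 2.11. Of the 11 genes that overlap a snoRNA, 8 were negative and 3 positive after rescaling. In the plot of the 31 genes by distance, the largest negative differences all lie within 400 bases of the snoRNA.

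**Figure D4:**
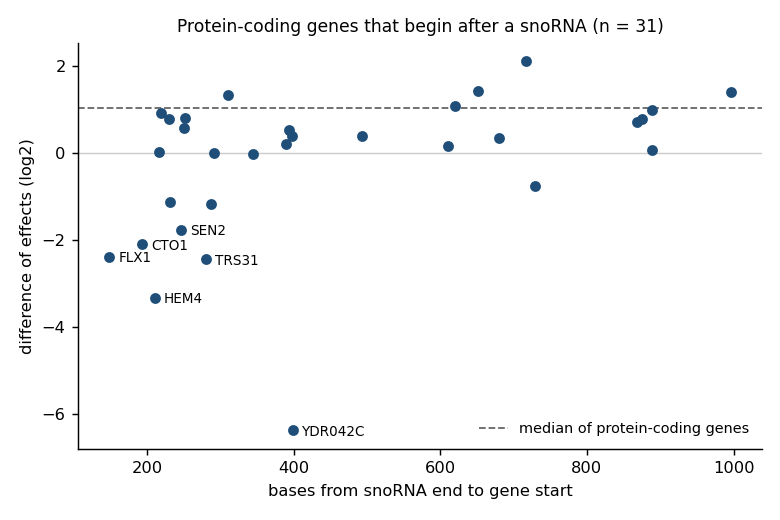
Difference of effects (log2, vertical axis) of the 31 protein-coding genes that begin within 1000 bases after a snoRNA on the same strand, by the bases between snoRNA end and gene start (horizontal axis). The dashed line marks the median of all protein-coding genes, 1.03. The 6 genes named in the plot, from SEN2 at -1.76 to YDR042C at -6.39, lie within 400 bases.

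Genes of the ribosome and its assembly sat on the Mtr4 side relative to other mRNAs. Of 83 ribosome biogenesis genes, 77 were negative and 3 positive after rescaling (40.9% and 34.5% of all protein-coding genes), although as deposited 34 were positive and 13 negative. The median xrn1 effect was 1.08 and the median tet-MTR4-Dox effect 0.87. UTP20, of the small-subunit processome, had effects of 0.79 and 1.62 (difference -0.82 ± 0.10 (SE), limma adjusted p = 2.0e-05). KRR1, which acts in 18S RNA synthesis, had 0.29 and 1.0 (difference -0.71 ± 0.09 (SE), limma adjusted p = 2.4e-05). NOP16, of the 60S pathway, had 0.65 and 1.14 (difference -0.49 ± 0.12 (SE), limma adjusted p = 0.0033). Among 14 genes of snoRNP proteins 13 were negative and 0 positive after rescaling, and 3 and 7 as deposited. NOP56, a core protein of box C/D particles, had an xrn1 effect of 0.05 and a tet-MTR4-Dox effect of 0.42, and NOP6 had 0.85 and 1.23.

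Ribosomal protein mRNAs had small median effects in both mutants as deposited, and were lower in both relative to the median protein-coding gene. The 57 genes of the small subunit had a median xrn1 effect of 0.48 and a median tet-MTR4-Dox effect of -0.07. The 81 genes of the large subunit had 0.51 and 0.02. On the rescaled scale these medians were -1.46 and -0.91 for the small subunit and -1.43 and -0.82 for the large one. There 54 of the 57 and 80 of the 81 genes were called lower in xrn1, against 2367 of all 5613 protein-coding genes. In the highest of the 5 bins of control density, 958 of 1123 protein-coding genes were lower in xrn1. In that bin 692 had a negative and 265 a positive rescaled difference, so abundant mRNAs in general shared much of this pattern. As deposited 49 small-subunit and 59 large-subunit genes had a positive difference and 2 and 3 a negative one, whereas after rescaling 5 and 6 were positive and 44 and 62 negative. RPL22B stood out with 3.04 in xrn1 and -0.06 in tet-MTR4-Dox (difference 3.11 ± 0.08 (SE), limma adjusted p = 1.5e-09). RPS22B, whose introns hold snR44, had 0.39 and 1.06 (difference -0.67 ± 0.11 (SE), limma adjusted p = 2.4e-04). Many of these genes have near-identical copies that may share reads. Translation factors were alike in direction, with 27 of 37 positive and 2 negative as deposited and 3 positive and 31 negative after rescaling. Among them ANB1, the eIF5A of cells low in oxygen, had -1.8 and 1.01 (difference -2.81 ± 0.17 (SE), limma adjusted p = 1.3e-07), and TIF11, eIF1A, had 0.29 and 0.93.

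Mitochondrial ribosomal proteins, encoded in the nucleus, went the other way. All 75 had a positive difference as deposited, and 65 were positive and none negative after rescaling, against 34.5% positive and 40.9% negative over all protein-coding genes. Their median xrn1 effect was 2.23 and their median tet-MTR4-Dox effect 0.38, a median difference of 1.87 beside 1.03. MRP17 had 6.88 and 6.82 in xrn1, against 0.56 and 0.526 in WT, and 1.06 and 0.95 in tet-MTR4-Dox, against 0.618 and 0.63 in WT-Dox. Its libraries in xrn1 were 12.5-fold above WT, and those of tet-MTR4-Dox 1.6-fold above WT-Dox (difference 2.96 ± 0.09 (SE), limma adjusted p = 3.6e-09). MRP49 had effects of 3.85 and 0.98, and MRPL13 of 3.07 and 0.21. Nuclear genes of the respiratory chain counted 38 of 41 positive and 1 negative as deposited and 25 positive and 5 negative after rescaling. SDH1, the flavoprotein of succinate dehydrogenase, had 3.3 and -0.25 (difference 3.54 ± 0.09 (SE), limma adjusted p = 1.2e-09), and NDI1, the NADH dehydrogenase of the inner membrane, 3.33 and 0.60. COX5B, the cytochrome c oxidase subunit made at low oxygen, was the member on the other side, with 0.72 and 1.06 (difference -0.35 ± 0.10 (SE), limma adjusted p = 0.0062). Of 21 tested rows encoded in the mitochondrial genome, where neither Xrn1 nor the nuclear exosome works, 14 had a positive and 2 a negative difference as deposited, whereas 1 was positive and 11 negative after rescaling. Their median xrn1 effect was 0.76 and their median tet-MTR4-Dox effect 0.07.

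Carbon stores and sugar breakdown were mixed, beside 84.7% positive and 4.95% negative as deposited and 34.5% and 40.9% after rescaling over all protein-coding genes. All 19 trehalose and glycogen genes had a positive difference as deposited, and 11 were positive and 4 negative after rescaling. UGP1, which makes UDP-glucose, had 2.41 in xrn1 and -0.79 in tet-MTR4-Dox (difference 3.19 ± 0.09 (SE), limma adjusted p = 2.3e-09). GLG1, a glycogenin, had 4.53 and 1.62, and PGM2, a phosphoglucomutase, 3.53 and 1.3. Glycolysis and fermentation genes had 16 of 19 positive and 1 negative as deposited, and 5 positive and 8 negative after rescaling, near the shares of all genes. HXK1, a hexokinase, had 4.06 and 0.60 (difference 3.46 ± 0.13 (SE), limma adjusted p = 7.6e-09), while TDH1, a glyceraldehyde phosphate dehydrogenase with close copies, had 0.26 and 1.4 (difference -1.14 ± 0.15 (SE), limma adjusted p = 3.1e-05).

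Stress genes included some of the strongest Mtr4-sided mRNAs. Of 48, 35 had a positive and 8 a negative difference as deposited, and 11 a positive and 26 a negative one after rescaling, where 34.5% and 40.9% of all protein-coding genes were so called. Besides HSP26, GRE1 had 0.0802 and 0.0767 in xrn1, against 0.0145 and 0.0198 in WT, and 0.384 and 0.365 in tet-MTR4-Dox, against 0.0111 and 0.0101 in WT-Dox (difference -2.63 ± 0.19 (SE), limma adjusted p = 3.4e-07). DDR2 rose in both mutants, by 3.86 in xrn1 and 5.52 in tet-MTR4-Dox on the log2 scale (difference -1.66 ± 0.33 (SE), limma adjusted p = 7.3e-04). Cell wall genes had 22 positive and 3 negative of 28 as deposited, and 9 and 13 after rescaling. KDX1, a relative of the cell wall kinase Slt2, had 5.53 and 2.2 (difference 3.33 ± 0.11 (SE), limma adjusted p = 4.5e-09), and SRL3 5.65 and 2.33. TIR1, a cell wall mannoprotein of cells in cold or without oxygen, had an xrn1 effect of -1.99 and a tet-MTR4-Dox effect of 0.93 (difference -2.92 ± 0.21 (SE), limma adjusted p = 3.9e-07). It is also a member of the PAU and seripauperin family, of which 9 of 16 tested genes were positive and 2 negative as deposited and 1 positive and 3 negative after rescaling, with many near-identical copies.

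In the cell cycle list 28 of 32 genes had a positive difference and 1 a negative one as deposited, near the 84.7% and 4.95% of all protein-coding genes. After rescaling 21 had a positive and 5 a negative one, beside 34.5% and 40.9%. The B-type cyclin CLB6 had effects of 3.38 and -0.25 (difference 3.63 ± 0.22 (SE), limma adjusted p = 1.4e-07), and the G1 cyclin CLN2 2.68 and -0.41 (difference 3.09 ± 0.10 (SE), limma adjusted p = 3.5e-09). HUG1, an inhibitor of ribonucleotide reductase induced by DNA damage, had 0.14 and 0.116 in xrn1, against 0.192 and 0.201 in WT, and 0.867 and 1.16 in tet-MTR4-Dox, against 0.153 and 0.156 in WT-Dox (difference -3.26 ± 0.18 (SE), limma adjusted p = 7.9e-08). It was lower in xrn1 and higher in tet-MTR4-Dox than in the controls. All 11 histone genes were positive as deposited, and 4 were positive and 3 negative after rescaling, among them CSE4, the centromeric histone, with 2.68 and 0.90, and HHF2, a histone H4 gene with a close copy, with 1.23 and -0.32.

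Genes that vegetative MATa cells keep low or use for mating held several Mtr4-sided members. Of 32 tested genes of meiosis and sporulation out of 50, 15 were positive and 6 negative as deposited, and 8 positive and 18 negative after rescaling (34.5% and 40.9% of all protein-coding genes). REC104, needed for meiotic recombination, had 0.29 and 0.281 in xrn1, against 0.0263 and 0.0219 in WT, and 1.45 and 1.37 in tet-MTR4-Dox, against 0.018 and 0.0243 in WT-Dox (difference -2.43 ± 0.20 (SE), limma adjusted p = 1.1e-06). NDT80, the activator of middle meiotic genes, had 0.83 in xrn1 and 2.88 in tet-MTR4-Dox (difference -2.06 ± 0.20 (SE), limma adjusted p = 3.9e-06). SPS4 went the other way with 2.33 and -1.74 (difference 4.07 ± 0.25 (SE), limma adjusted p = 1.3e-07). Among 25 tested mating genes 16 were positive and 7 negative as deposited, and 5 and 14 after rescaling. Besides MFA1, AGA1, the anchor of the a-agglutinin, had 0.57 and 2.16 (difference -1.59 ± 0.15 (SE), limma adjusted p = 3.4e-06), and PRM1, which acts in the fusion of mating cells, 0.13 and 1.25.

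The genes of RNA decay itself gave mostly modest differences. Of 13 genes of the nuclear exosome and its cofactors, 11 were positive and 1 negative as deposited, and 0 positive and 10 negative after rescaling (84.7% and 4.95%, and 34.5% and 40.9%, of all protein-coding genes). LRP1, a partner of the exonuclease Rrp6, was the negative one as deposited, with an xrn1 effect of 1.0 and a tet-MTR4-Dox effect of 1.34 (difference -0.34 ± 0.10 (SE), limma adjusted p = 0.0098, and -0.23 without WT replicate 1). MPP6, which links Mtr4 to the exosome, had 1.42 and 1.65, with a rescaled difference of -1.32 (limma adjusted p = 2.4e-05). In the list of TRAMP and of Nrd1, Nab3 and Sen1, 7 of 8 were positive and 1 negative as deposited, MTR4 itself included, and 1 was positive and 4 negative after rescaling. The negative member as deposited was NRD1, whose mRNA is known to be cut short by its own protein, with 3.03 and 3.1 in xrn1, against 0.597 and 0.57 in WT, and 5.58 and 5.57 in tet-MTR4-Dox, against 0.527 and 0.502 in WT-Dox (difference -1.04 ± 0.08 (SE), limma adjusted p = 4.7e-07). Genes attenuated by Nrd1 and Nab3 or steered by CUTs had 9 of 15 positive and 4 negative as deposited, and 5 and 10 after rescaling. Beside NRD1 and IMD2, URA8, a CTP synthase, had 1.07 and 1.99 (difference -0.91 ± 0.13 (SE), limma adjusted p = 7.4e-05), and its reads nearly match those of the NUT0422 row.

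In the list of cytoplasmic 5′ to 3′ decay, XRN1 itself included, 13 of 19 were positive and 1 negative as deposited, and 7 and 10 after rescaling (34.5% and 40.9% of all protein-coding genes). LSM7, of the ring that marks mRNA for decapping, had 0.97 and 1.07, with a rescaled difference of -1.19 (limma adjusted p = 4.0e-07). All 15 deadenylation genes were positive as deposited, and 8 positive and 6 negative after rescaling, with effects of 2.73 and 0.72 for MOT2, a ubiquitin ligase of the Ccr4-Not complex, and of 2.51 and 0.69 for PAN3, of the Pan2-Pan3 deadenylase. Nonsense-mediated decay genes were positive in 5 of 5 cases as deposited, and 2 were positive and 2 negative after rescaling. NMD4, a partner of Upf1, had 3.23 and 1.01 (difference 2.22 ± 0.09 (SE), limma adjusted p = 1.6e-08), and EBS1 2.44 and 0.78. The 4 Ski genes and the 4 genes of nuclear 5′ to 3′ decay were positive as deposited, and 3 and 4 of them were negative after rescaling.

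Other nuclear RNA factors and the proteasome were mixed. Of 23 genes of mRNA export and packaging, 17 were positive and 3 negative as deposited, and 4 positive and 14 negative after rescaling (84.7% and 4.95%, then 34.5% and 40.9%, over all protein-coding genes). DBP2, a DEAD-box helicase, had 3.97 and 3.98 in xrn1, against 3.49 and 3.41 in WT, and 9.14 and 9.11 in tet-MTR4-Dox, against 3.95 and 3.85 in WT-Dox (difference -1.02 ± 0.07 (SE), limma adjusted p = 2.1e-07). NAB2, a poly(A) binding protein known to limit its own mRNA through the exosome, had effects of 1.33 and 1.9 (difference -0.57 ± 0.10 (SE), limma adjusted p = 3.1e-04), and NPL3, an export factor, 0.68 and 1.18. Splicing genes had 46 of 52 positive and 1 negative as deposited, and 12 and 23 after rescaling, where SMD3, a core Sm protein, had a rescaled difference of -1.13. Polymerase II and general factors had 26 of 32 positive and 0 negative as deposited, and 3 and 22 after rescaling, with TFA1, of TFIIE, at 2.94 and 0.62 (difference 2.32 ± 0.10 (SE), limma adjusted p = 1.9e-08). Proteasome genes had 32 of 36 positive and 0 negative as deposited, but 2 and 30 after rescaling, with SEM1 at a rescaled difference of -1.26. In the plot of list medians, the xrn1 median exceeds the tet-MTR4-Dox median in every list drawn but that of snoRNP proteins (0.86 and 0.89), whose median difference was nevertheless positive at 0.18.

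**Figure D5:**
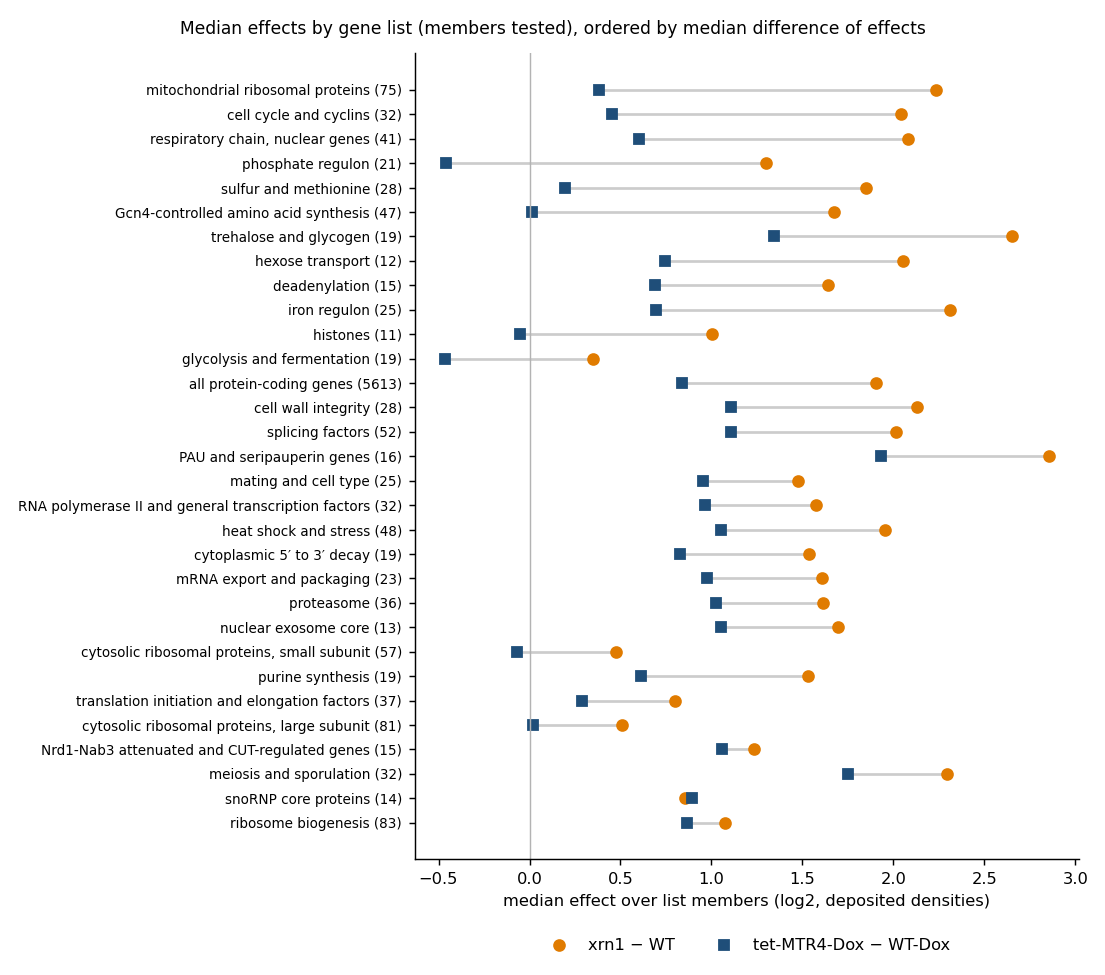
Median xrn1 effect (circles) and median tet-MTR4-Dox effect (squares) over the tested members of each gene list of 10 or more (log2, horizontal axis, deposited densities), with their number in parentheses, ordered by the median difference of effects. Mitochondrial ribosomal proteins have the widest gap (2.23 and 0.38), and ribosome biogenesis genes are at the narrow end (1.08 and 0.87), beside 1.90 and 0.84 over all protein-coding genes.

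RNAs that moved in opposite directions were few. On the deposited scale 285 features rose in xrn1 and fell in tet-MTR4-Dox, of which 278 are protein-coding, and 72 fell in xrn1 and rose in tet-MTR4-Dox, of which 21 are CUTs, 20 snoRNAs, 18 NUTs and 10 protein-coding. MTR4 counts in the first set and XRN1 in the second. In the highest bin of control density, 39 NUTs had median effects of -0.18 in xrn1 and 1.71 in tet-MTR4-Dox, and 68 snoRNAs -0.14 and 1.91. Whether these NUT rows hold reads of snoRNAs was not tested. Shares of all tested features for each separate direction are the 95%, 0.869%, 91.3% and 3.27% given above. On the rescaled scale these numbers were 538 and 1320, where the xrn1 effect was called higher for 41.2% and lower for 33.7% of all tested features and the tet-MTR4-Dox effect higher for 62.7% and lower for 24.4%. The largest in the first set were ARG1, ARG3 and PHO5 with XUT0788, which had 0.296 and 0.219 in xrn1, against 0.00406 and 0.00155 in WT, and 0.286 and 0.286 in tet-MTR4-Dox, against 0.614 and 0.566 in WT-Dox (difference 5.89 ± 0.28 (SE), limma adjusted p = 3.0e-08). Its WT densities lie below the 0.00626 added before the logarithm, so the size of its xrn1 effect depends on that setting. The controls of XUT0788 also differ widely from each other. In the second set CUT365 had 0.070 and 0.0434 in xrn1, against 0.0787 and 0.0738 in WT, and 5.29 and 5.28 in tet-MTR4-Dox, against 0.0333 and 0.0369 in WT-Dox (difference -7.42 ± 0.24 (SE), limma adjusted p = 4.2e-09). YOR277C, a reading frame without a RefSeq protein, had 0.0312 and 0.0172 in xrn1, against 0.036 and 0.032 in WT, and 2.96 and 2.57 in tet-MTR4-Dox, against 0.0363 and 0.034 in WT-Dox (difference -6.5 ± 0.27 (SE), limma adjusted p = 1.6e-08). CUT874 had 0.0214 and 0.0232 in xrn1, against 0.0347 and 0.0317 in WT, and 1.6 and 1.41 in tet-MTR4-Dox, against 0.0203 and 0.0181 in WT-Dox. CUT745 had 0.0238 and 0.0118 in xrn1, against 0.0329 and 0.0439 in WT, and 1.67 and 1.1 in tet-MTR4-Dox, against 0.0317 and 0.0287 in WT-Dox. In these 4 the fall in xrn1 was small beside the rise in tet-MTR4-Dox.

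Level and structure of mRNAs moved with the size of both effects. In the same 5 bins of control density, protein-coding genes had median xrn1 effects of 2.47, 2.2, 1.99, 1.65 and 1.04 from the lowest bin to the highest, and median tet-MTR4-Dox effects of 1.53, 0.95, 0.81, 0.68 and 0.34. The median difference was 0.96, 1.23, 1.18, 0.97 and 0.72 in that order, so it varied less than either effect. The control density is the denominator of both effects, and the part of that in this trend was not tested. Genes with 2 or more exons (251) had a median difference of 0.67, against 1.04 for the 5362 with 1 exon, and after rescaling 157 of the 251 were negative and 50 positive, beside 40.9% and 34.5% of all protein-coding genes. The median difference was also low in the ribosomal protein lists, at 0.53 for the small and 0.49 for the large subunit. The parts of exon number, level and list membership were not tested. Within 20 kb of a chromosome end, 160 genes had median effects of 2.51 and 1.33, against 1.89 and 0.83 farther away, while their median difference of 1.13 lay near the 1.03 of the others.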

How the data were processed

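Total RNA of 2 biological replicates per group was sequenced. The deposited signal is a table of normalized densities for 10891 features, made by the authors with DESeq2, featureCounts 2.0.0, HISAT2 2.2.0 and Trim Galore on the R64 genome, per the submitters' processing notes, which give no role for each tool. As inferred from the values and not stated in the labels, a density is a whole number of reads over feature length, scaled so that the ERCC spike-ins are alike in all libraries. Whole reads were recovered for 100% of the deposited signal values at a tolerance of 0.02 reads. The step at which the spike-ins were added is not given in the sources used here, so it is unknown whether a change relative to spike-in RNA equals one per cell. The 5 columns of group means were not used.

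Features of a mean density over all 10 libraries of at least 0.0344 were kept. Then log2(density + 0.00626) was fitted with limma 3.58.1 (R 4.3.3, eBayes with a trend) over the same libraries, with a coefficient per group. A fold change on this scale understates that of low features. The SE rests on the spread shared by 5 groups, with 5 residual and 4.84 prior degrees of freedom. Calls use Benjamini-Hochberg adjusted p-values under 0.05 over all 9666 features. The fit was also tested on simulated data. The precision, with 2 libraries per group, rests on their agreement as well as on depth. Whether replicates are separate cultures is stated only as biological replicates, and p-values measure the spread between these libraries.

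The named features are XRN1, MTR4 and strain markers, then, among features called alike on both scales with all pairs of replicates alike and at least the median density of protein-coding genes (0.791), the 8 mRNAs, 3 XUTs, CUTs and NUTs and 4 snoRNAs with the largest rescaled difference each way, up to 3 called members per list, and the 4 largest of opposite sign each way. One mRNA so chosen is not reported here. List members whose direction turns with scaling, near-identical copies and the markers HIS3, LEU2, MET17, URA3, LYS2, ADE2 and CAN1 are left unnamed or without values, a choice made after values were seen. The members and the 35 lists were chosen with earlier results of these data known. Positions and sequences come from RefSeq R64, which matched 5996 identifiers. Fold values beside the log2 effects are their antilogs. Alternatives were other scalings, pseudocounts, filters, voom on recovered reads, 8 libraries only, no trend, a replicate block and leaving out each library. Computation used Python 3.11.15, numpy 2.4.6, pandas 2.3.3 and matplotlib 3.10.9.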

Additional observations from a re-analysis of the deposited data

How the results depend on the processing

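Scaling mattered most. Positive differences of effects numbered 5462 and negative ones 2826 on the deposited densities, 2140 and 5550 once rescaled on protein-coding genes, 3013 positive on mitochondrially encoded genes, 3815 on all features and 4119 on total yeast reads. The xrn1 effect was higher for 3032 and lower for 4131 features when rescaled on all features, higher for 3982 and lower for 3255 on protein-coding genes, and lower for 588 on mitochondrially encoded genes and 1039 on total reads. The tet-MTR4-Dox effect was higher for 4063 and lower for 4727 on all features, and lower for 1387 on total reads and 2354 on protein-coding genes. Without 1 library, the xrn1 effect was lower for 49 (without xrn1 replicate 2) to 105 features (without xrn1 replicate 1). The class gaps kept their sign. The CUT median minus the protein-coding median (-4.03) was -4.26 and -3.56 with a pseudocount 4 times smaller and larger, -4.27 with the filter at the 25th percentile, -4.24 with voom and -3.88 on mitochondrially encoded genes. The NUT gap (-2.80) was -2.50 with the larger pseudocount, -2.69 unfiltered, -2.64 with the stricter filter, and -2.69, -2.65 and -2.68 rescaled on all features, mitochondrial and protein-coding genes. The XUT gap (-1.25) was -1.54 with the stricter filter and -1.14 on mitochondrial genes, and that of reading frames without a RefSeq protein (-1.30) was -1.57 unfiltered, -0.87 with the stricter filter and -1.20 on mitochondrial genes. snR42 turned from 0.053 as deposited to -0.54, -0.66, -0.47 and -1.04 when rescaled on all features, mitochondrial genes, total reads and protein-coding genes. The cause of these shifts was not tested, beyond the scaling itself.

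Replicate numbers did not pair the libraries, since the deviations of same-numbered libraries correlated between -0.08 and 0.05. With the replicate number as a block, 5496 differences were positive and 2833 negative, and the only named feature to lose its call was CUT289 on the rescaled scale. Densities without a spike-in protocol, 2 libraries per group and different strain backgrounds limit what a difference of effects can show.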
